A study of Mus musculus with 32 samples.

Results

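Maturation of the mouse cortex between embryonic days E12.5 and E15.5 was examined in Kat6b-/- embryos on the C57BL/6 background, by comparing 5 libraries of E15.5 cortex with 3 libraries of E12.5 dorsal telencephalon, the wall of the forebrain from which the cortex forms. These 8 libraries, of 32 in the series, were taken by genotype and age as the sample titles give them, and each came from 1 embryo. The E15.5 embryos came from 5 litters; at E12.5, replicate 1 was from litter 568 and replicates 3 and 4 were both from litter 592. For comparison, 8 wild-type C57BL/6 libraries (3 at E12.5 and 5 at E15.5) were from littermates of the same litters. A further 8 libraries came from Tg(Kat6b) embryos, which carry additional Kat6b expression, on a mixed FVBxBALB/c background, with 4 libraries at each age. Wild-type embryos of the FVBxBALB/c background also gave 4 libraries at each age. Age, litter and the dissected tissue changed together, so their parts in a difference cannot be told apart.

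KAT6B is a histone acetyltransferase of the MYST family that works in a complex with BRPF scaffold proteins, ING5 and MEAF6. In the embryonic cortex, radial glia divide at the ventricular surface and give rise to intermediate progenitors and neurons. Deep-layer neurons are born before upper-layer neurons, and the progenitors turn to making glia later. Bulk RNA from such tissue holds all of these cells, so a smaller number of cells of a type and less RNA per cell cannot be told apart in any value below.

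Kat6b RNA itself did not separate the libraries. It measured 189, 150 and 120 CPM (counts scaled to the size of the library) in labelled knockout replicates 1, 3 and 4 at E12.5, and 193, 183, 171, 157 and 187 CPM in replicates 1 to 5 at E15.5. The ages overlapped, with a log2 fold change of 0.22 (SE 0.13) and an adjusted p of 0.15 by edgeR, and without E12.5 replicate 1 the difference was 0.40 with an adjusted p of 0.013 by edgeR. Wild-type libraries ran from 153 to 194 CPM at E12.5 and from 153 to 194 CPM at E15.5, and labelled knockout replicates 3 and 4 at E12.5 lay below that range. The count covers the whole gene, so it does not check the deleted part, and the libraries are called labelled knockout throughout.

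Total counts ran from 22952251 to 29148913 at E12.5 and from 14920689 to 43362924 at E15.5. On the first principal component of the 8 libraries E12.5 ran from -88.63 to -52.21 and E15.5 from 38.84 to 49.3. E15.5 replicate 5 carries an E12.5 name in its column header and a dorsal telencephalon label, yet lay at 49.3 with the other E15.5 libraries. E15.5 replicate 3 held 19.12% ribosomal RNA counts, against at most 0.5652% in the other labelled knockout libraries. E15.5 replicates 3 and 4 stood apart on the second component, at -42.4 and -29.36 against 16.27 to 29.62. They also held more RNA of the meningeal and of the diencephalon to hindbrain lists, as given below. Results are therefore also given without this pair where it moves them. Emx1, a marker of the dorsal telencephalon, was present at both ages, from 33.3 to 77.0 CPM at E12.5 and from 37.7 to 59.5 CPM at E15.5.

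Many genes differed between the ages. Of 16118 genes tested, 9090 (56.4%) were called: 4736 (29.4%) were higher at E15.5 and 4354 (27%) were lower, at an adjusted p below 0.05 by edgeR's quasi-likelihood test over all genes. A stricter test against a fold change of 2 (edgeR's glmTreat) called 1023 genes higher (6.35%) and 513 lower (3.18%). Without E15.5 replicates 3 and 4 the 4 counts were 4283, 4033, 874 and 504. The count of genes called over 2-fold lower fell to 338 without E12.5 replicate 1 and to 336 without E12.5 replicate 3. In 4647 genes (28.8%) all 5 E15.5 libraries lay above all 3 E12.5 libraries, and in 4076 (25.3%) all lay below. The median log2 fold change of all genes was -0.01, and every list below is read against that median and these shares.

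**Figure D1:**
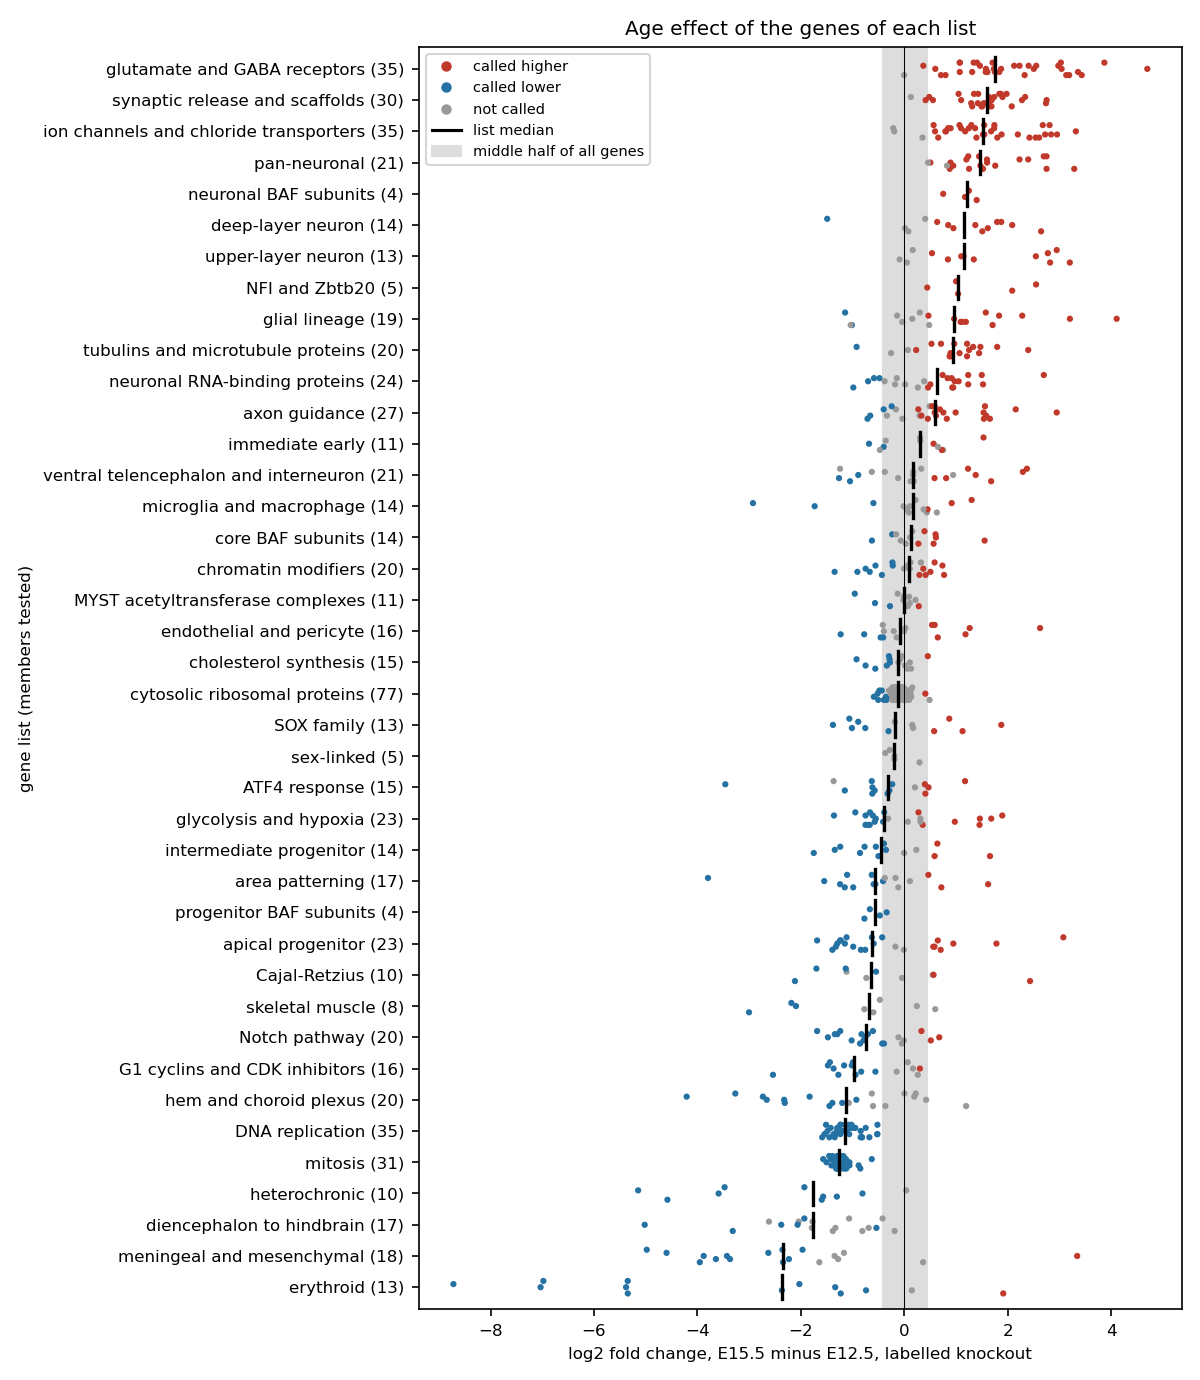
Log2 fold change from E12.5 to E15.5 in the labelled knockout (horizontal axis) for the tested members of 40 gene lists (vertical axis, ordered by median). Points are genes coloured by their call at an adjusted p below 0.05, black bars are list medians, and the grey band is the interquartile range of all 16118 genes. The medians of the receptor, synaptic and channel lists lie to the right of the band. Those of the DNA replication, mitosis, heterochronic, erythroid, meningeal and diencephalon to hindbrain lists lie to its left. Single members of some of these lists lie within the band.

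Cell cycle genes fell: every member of the replication and mitosis lists was called lower at E15.5. The 35 DNA replication genes had log2 fold changes from -1.59 to -0.52 and a median of -1.14, and 14 were called over 2-fold lower by glmTreat. All 31 mitosis genes were lower too, from -1.57 to -0.63 with a median of -1.26, and 14 were called over 2-fold lower by glmTreat. Mcm10, which helps to start replication forks, measured 68.8, 55.9 and 49.8 CPM at E12.5 and 19.9, 21.5, 18.6, 18.2 and 21.5 CPM at E15.5, a log2 fold change of -1.54 (SE 0.10). The E12.5 range lay wholly above the E15.5 range. Birc5, the survivin of the chromosomal passenger complex, measured 106, 102 and 95.7 CPM against 34.6, 38.9, 28.9, 30.7 and 37.7 CPM (log2 fold change -1.57, SE 0.09). Cdc45, a helicase component, Uhrf1, which maintains DNA methylation behind the fork, and Rrm2, a subunit of ribonucleotide reductase, fell (log2 fold changes -1.22, -1.51 and -1.45). The cyclins Ccnb1 and Ccnb2 and the kinesin Kif23 fell (log2 fold changes -1.37, -1.24 and -1.19). Without E15.5 replicates 3 and 4, 35 of 35 and 30 of 31 members were called lower.

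The G1 list showed the same direction with exceptions: 11 of 16 members were lower, 1 was higher (2 without E15.5 replicate 1) and 4 were not called, with a median of -0.97. Ccnd1, the cyclin that links growth factor signals to G1, measured 544, 487 and 477 CPM at E12.5 and 86.7, 81.9, 87.5, 89.5 and 86.9 CPM at E15.5. This was a 5.81-fold lower level (log2 fold change -2.54, SE 0.09, adjusted p 6.6e-12 by edgeR), and the libraries of each age varied little beside the gap. The transcription factors E2f1 and E2f2, which drive S-phase genes, and Cdk2, the kinase of S-phase entry, fell (log2 fold changes -1.16, -1.44 and -1.27). The member that rose was Cdkn1b, which encodes the CDK inhibitor p27, at a log2 fold change of 0.30; it is named after its value was seen.

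The promoters of the replication and mitosis lists carried different short motifs. RefSeq (GRCm38.p6) gives windows of 300 bases, from 250 before to 50 after a start site, for 28 of the 35 replication genes (33 promoters) and 25 of the 31 mitosis genes (27 promoters). An E2F motif (TTTCCCGC, TTTGGCGC, TTTCGCGC or TTTGCCGC, on either strand) was found in 39.4% of replication promoters, 3.7% of mitosis promoters, 3.7% of promoters of all genes tested and 2.26% of all promoters in the table. The cell cycle homology region motif CHR (TTTGAA or TTCGAA, on either strand) was found in 81.5% of mitosis promoters, 18.2% of replication promoters, 13.8% of those of tested genes and 19.2% of all. The 2 motifs share no bases in a match. The following windows of 30 bases show matches in genes with log2 fold changes between -1.59 and -1.08, with the motif in capitals and each read 5′ to 3′ on the strand named.
Uhrf1, E2F, chr17:56304117-56304146, plus strand: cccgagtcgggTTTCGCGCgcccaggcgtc
Cdc6, E2F, chr11:98908002-98908031, minus strand: accccaggcgaTTTCCCGCtctccaccggc
Mcm6, E2F, chr1:128359734-128359763, minus strand: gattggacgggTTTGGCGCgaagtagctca
Orc1, E2F, chr4:108579416-108579445, minus strand: aggagaaaactTTTCGCGCcactaaccgaa
Ccnb2, CHR, chr9:70421541-70421570, minus strand: agtgcgtcagcggcgcggtaTTTGAAtcgc
Kif23, CHR, chr9:61946788-61946817, minus strand: ggcggccgctgattggcctgTTTGAAatgc
Bub1, CHR, chr2:127831836-127831865, minus strand: aagtgcggctgcgcggggaaTTCGAAtcgc
Cdc20, CHR, chr4:118437352-118437381, minus strand: gacggttaagacagttgggtTTTGAAggag
Cdk1, CHR, chr10:69352918-69352947, minus strand: gggagctttaccgcggcgagTTTGAAactg
These genes include the origin factors Cdc6 and Orc1, the helicase subunit Mcm6, the checkpoint kinase Bub1, the anaphase activator Cdc20 and the mitotic kinase Cdk1, and all fell; those without a value here were chosen after their values were seen, to show the motifs. A match describes the letters only and not binding by a factor.

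Genes known for early developmental timing fell. Of 10 members of the heterochronic list, 9 were lower, 7 of them called over 2-fold by glmTreat, with a median of -1.76. Hmga2, a chromatin protein of young stem cells, measured 427, 254 and 157 CPM at E12.5 and 6.22, 8.43, 8.13, 8.74 and 8.04 CPM at E15.5. The E15.5 level was 35.4-fold lower (log2 fold change -5.15, SE 0.31), although the E12.5 libraries themselves ranged widely. Its pseudogene Hmga2-ps1 fell by 4.89; as reads of near-identical copies may be split between them, that value is uncertain. Lin28a, an RNA-binding protein that blocks let-7 maturation, measured 2.39, 2.31 and 3.20 CPM at E12.5 and 0.0760, 0.134, 0.0710, 0.0850 and 0.142 CPM at E15.5, where it rested on 1 to 6 reads per library (-4.58, SE 0.41). Lin28b, its paralogue, was more abundant, at 19.8, 26.2 and 32.4 CPM against 7.55, 8.56, 10.7, 11.6 and 6.01 CPM, and fell by 1.57. Trim71, a partner of the same pathway, and Sall4, a zinc finger factor of pluripotent cells, fell (log2 fold changes -3.59 and -3.47) from E12.5 levels of at most 7.99 CPM. The mRNA-binding proteins Igf2bp1, Igf2bp2 and Igf2bp3 fell (log2 fold changes -1.93, -1.59 and -1.30), and Hmga1 fell by 0.81. Mycn, a growth-promoting factor, was the member not called, at 150, 100 and 96.0 CPM against 133, 124, 106, 104 and 126 CPM, and its log2 fold change of 0.04 changed sign with the setting; without E12.5 replicate 1 it was called higher, at 0.27 with an adjusted p of 0.048 by edgeR.

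NFI factors and Zbtb20, which come on in older progenitors and neurons, moved the other way: all 5 members were higher, 2 called over 2-fold by glmTreat, with a median of 1.04. Nfib measured 220, 185 and 149 CPM at E12.5 and 872, 934, 705, 645 and 769 CPM at E15.5 (log2 fold change 2.09, SE 0.17). Nfix measured 76.8, 51.6 and 39.9 CPM against 386, 389, 268, 259 and 339 CPM (2.55, SE 0.23). No E15.5 library overlapped the E12.5 libraries in either gene, and E15.5 replicates 3 and 4 were the lowest of their group. Nfia, Zbtb20 and Nfic had log2 fold changes of 1.04, 1.00 and 0.45; without E12.5 replicate 4 that of Nfic was 0.25. Zbtb20 was not called with all 32 libraries in 1 fit, at 0.97 with an adjusted p of 0.051 by edgeR.

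**Figure D2:**
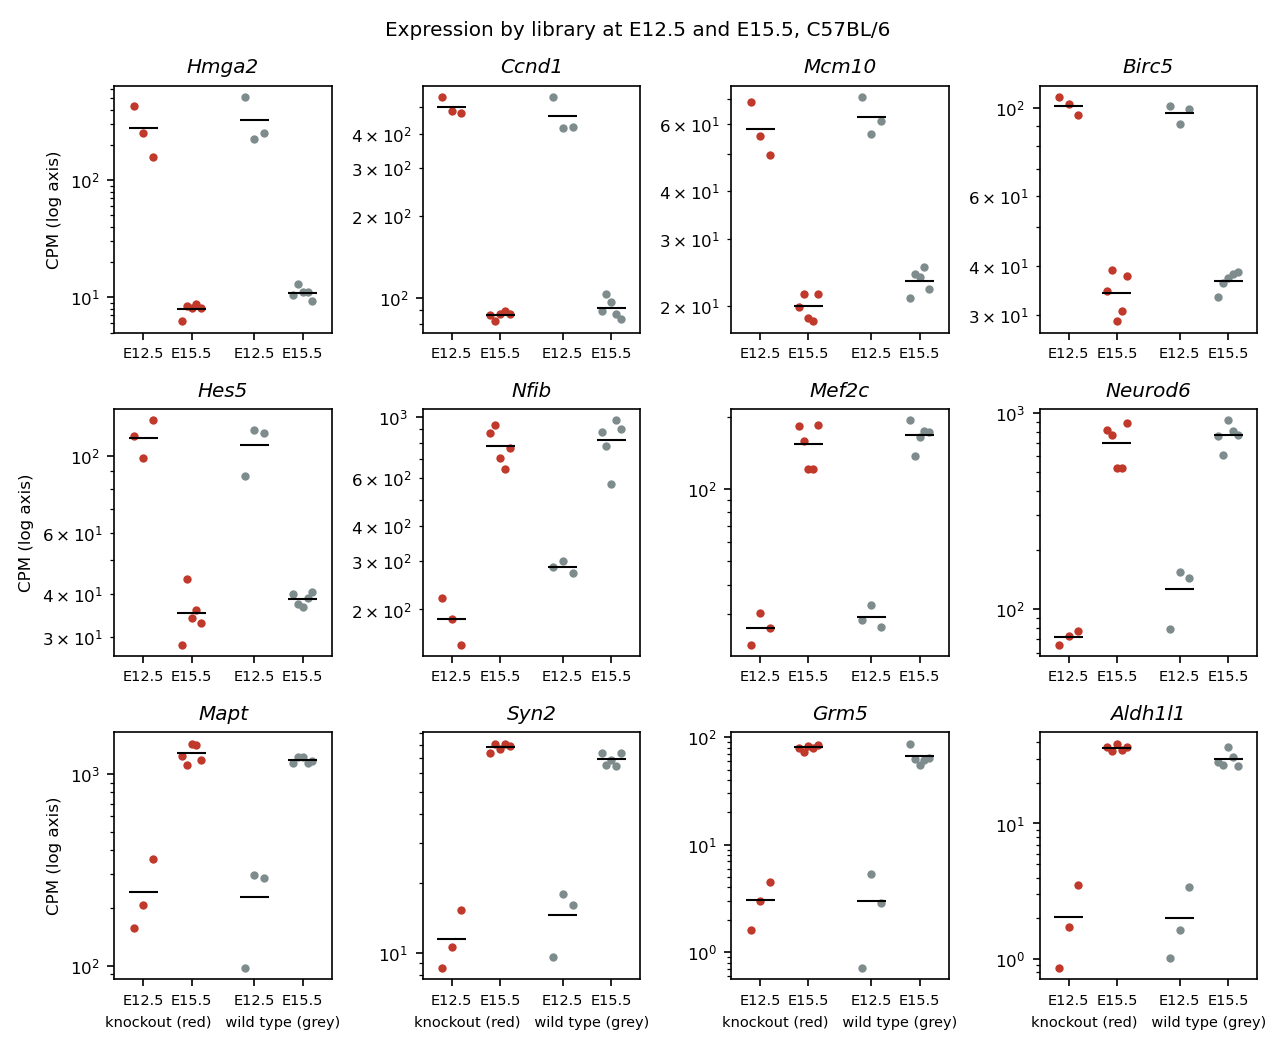
CPM of 12 genes in each library (log axes), labelled knockout in red and wild type in grey, with replicates in numerical order from left to right and bars at group means. In the labelled knockout the ages do not overlap in any of the 12 genes, and Hmga2 spans 157 to 427 CPM at E12.5 and 6.22 to 8.74 CPM at E15.5. The genes were picked by their p or change in this same comparison, so the lack of overlap follows from the choice. Of all genes tested, 28.8% lay wholly higher and 25.3% wholly lower at E15.5.

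Radial glia genes mostly fell, with a subset that rose. Of 23 apical progenitor genes, 14 were lower, 7 were higher and 2 were not called, with a median of -0.63. Hes5, a Notch target that keeps progenitors undifferentiated, measured 114, 98.2 and 126 CPM at E12.5 and 28.5, 44.1, 34.1, 35.9 and 33.0 CPM at E15.5 (log2 fold change -1.68, SE 0.12). Fgfr3, a growth factor receptor of the ventricular zone, and Nr2e1, an orphan nuclear receptor of neural stem cells, fell (log2 fold changes -1.39 and -1.32). Mfge8, a secreted glycoprotein of radial glia and astrocytes, rose from 30.7, 30.9 and 23.1 CPM to 99.0, 96.1, 95.7, 98.0 and 97.3 CPM, 3.44-fold. Slc1a3, Fabp7, Hopx, Tnc, Ptprz1 and Ddah1 were the other 6 that rose, by log2 fold changes from 0.56 to 3.08; these were named after their values were seen, and several are known from later, glia-forming radial glia. Hopx was the least firm of them: its ages overlapped, at 0.65 with an adjusted p of 0.037 by edgeR, and it was not called without E12.5 replicate 3 or 4 (adjusted p 0.13 and 0.17) or without E15.5 replicate 1 or 2 (0.059 and 0.088).

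Of 20 Notch pathway genes, 14 were lower and 3 were higher (1 without E12.5 replicate 1), with a median of -0.73. The ligand Dll1 measured 161, 127 and 149 CPM against 60.4, 58.3, 56.2, 53.1 and 59.0 CPM (-1.34, SE 0.08). The receptor Notch3 fell by 1.48 and the target Hes1 fell by 1.29, so ligand, receptor and targets all had called members. Of 14 intermediate progenitor genes, 9 were lower and 3 higher, with a median of -0.45. Neurog1, a proneural factor, fell by 1.75 and Btg2, which marks neuron-producing divisions, fell by 0.77. Sstr2, a somatostatin receptor of these cells, rose by 1.66 on the log2 scale.

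Genes that pattern the cortical field into areas were lower in 10 of 17 cases and higher in 3, with a median of -0.56. Dmrta1, a doublesex-related factor of the caudal and medial field, measured 63.1, 35.2 and 23.9 CPM at E12.5 and 2.92, 3.08, 2.71, 2.97 and 2.93 CPM at E15.5 (log2 fold change -3.80, SE 0.26). Its E15.5 libraries lay within a narrow range, whereas E12.5 replicate 1 held more than the other E12.5 libraries. Pax6 and Emx2, which act in opposite gradients across the field, fell (log2 fold changes -0.99 and -1.24), and Lmo3 rose by 1.62. The SOX family split: 6 of 13 members were lower and 4 higher. Sox3 and Sox21 of neural progenitors fell (log2 fold changes -1.38 and -0.89), Sox13 fell by 1.06, and Sox5, which specifies deep-layer neurons, rose by 1.88.

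Progenitor subunits of the BAF chromatin remodeller fell and neuronal subunits rose. BAF complexes slide nucleosomes, and neurons replace several progenitor subunits with paralogues. All 4 progenitor subunits were lower (median -0.57) and all 4 neuronal subunits were higher (median 1.21); glmTreat called none of the 8 as over 2-fold. Actl6a of progenitors measured 171, 152 and 151 CPM at E12.5 and 89.9, 100.5, 86.0, 83.9 and 103 CPM at E15.5, and Actl6b of neurons 33.7, 42.6 and 79.2 CPM against 129, 143, 139, 141 and 135 CPM. Expressed per kb of counted length, the ratio of Actl6b to Actl6a was 0.250, 0.357 and 0.668 at E12.5 and 1.82, 1.81, 2.05, 2.13 and 1.67 at E15.5. Actl6a was the more abundant of the pair in every E12.5 library and Actl6b in every E15.5 library.

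The ratio of Ss18l1 to Ss18 per kb went from 0.330, 0.377 and 0.581 to 1.26, 1.26, 1.496, 1.38 and 1.32. That of Dpf1 to Dpf2 went from 0.697, 0.753 and 1.08 to 2.36, 2.47, 2.17, 2.08 and 2.24, so in E12.5 replicate 4 the neuronal Dpf1 was already the more abundant. Phf10 fell by 0.34 and Dpf3 rose by 1.25. Of 14 core subunits, 6 were higher and 2 lower (1 lower without E12.5 replicate 3, and 1 without E15.5 replicates 3 and 4), with a median of 0.14. Smarca2, 1 of the alternative ATPases, rose by 1.56, yet stayed below Smarca4 per kb, at 0.106 to 0.167 of its level at E12.5 and 0.322 to 0.360 at E15.5. Arid1b and Smarcd3 rose by 0.57 and 0.61, and Smarcd2 fell by 0.62.

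**Figure D3:**
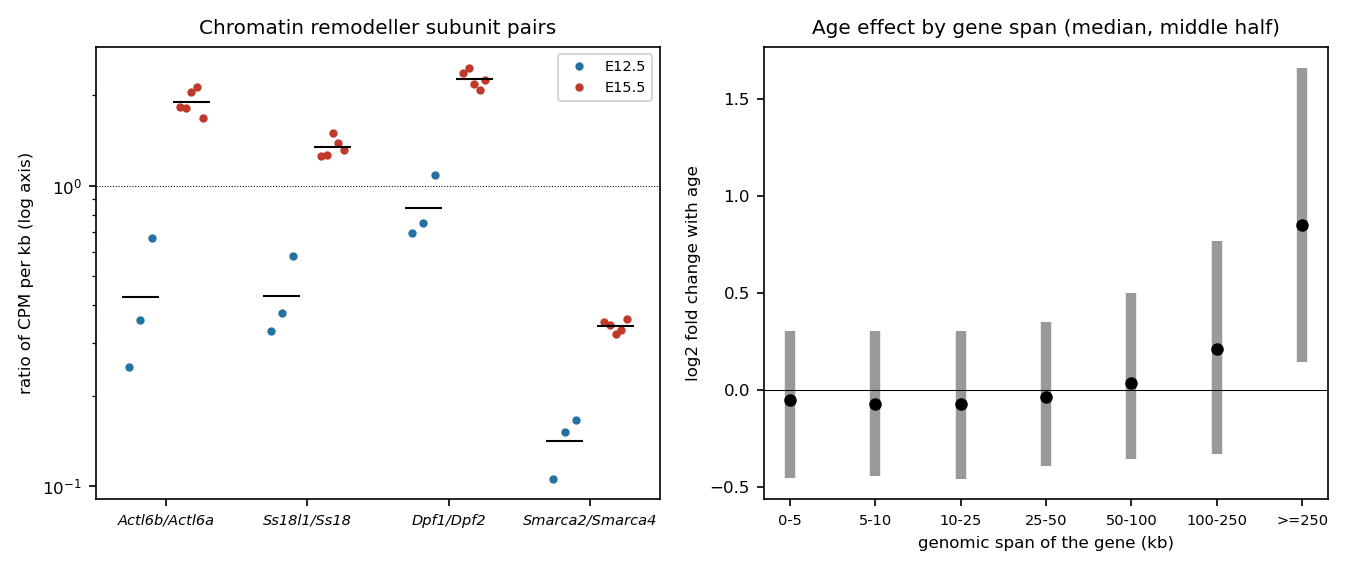
Left, ratios of CPM per kb of counted length for 4 pairs of BAF subunits in each labelled knockout library (log axis; blue E12.5, red E15.5, bars at means); the Actl6b to Actl6a ratio is 0.250 to 0.668 at E12.5 and 1.67 to 2.13 at E15.5. Right, median log2 fold change with age (points) and interquartile range (bars) of genes binned by genomic span in kb; the median is 0.85 in genes of 250 kb or more.

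Of 11 genes of the MYST acetyltransferase complexes, to which Kat6b belongs, 3 were lower, 1 was higher and 7 were not called, with a median of -0.01. Without E12.5 replicate 3, and without any 1 of E15.5 replicates 2 to 5, 0 were higher. The complex members Ing5, Brpf3 and Brpf1 fell (log2 fold changes -0.96, -0.57 and -0.28). Of 20 further chromatin modifiers, 8 were lower and 7 higher, and without E12.5 replicate 1 only 4 were higher. Hdac1, a histone deacetylase, measured 56.8, 51.1 and 47.0 CPM against 26.1, 29.2, 25.2, 27.1 and 29.97 CPM (-0.91, SE 0.08). The Polycomb subunits Eed and Ezh2 fell (log2 fold changes -0.75 and -0.67), and the DNA methyltransferase Dnmt3b fell by 1.35.

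Layer-specific neuron genes rose for both deep and upper layers. Of 14 deep-layer genes, 10 were higher, 1 was lower and 3 were not called, with a median of 1.16. Zfpm2, a corticothalamic factor, measured 11.6, 13.1 and 12.7 CPM at E12.5 and 48.8, 47.2, 42.1, 36.1 and 42.7 CPM at E15.5 (1.80, SE 0.10). Otx1, expressed by progenitors as well as by deep-layer neurons, was the member that fell, by 1.49. Of 13 upper-layer genes, 10 were higher, 0 were lower and 3 were not called, with a median of 1.15. Mef2c, a transcription factor of maturing neurons, measured 22.4, 30.5 and 26.3 CPM at E12.5 and 183, 159, 121, 122 and 186 CPM at E15.5, a 5.84-fold rise. All E15.5 libraries were far above E12.5, and replicates 3 and 4 held the least. Bhlhe22 and Unc5d rose by 2.78 and 2.95 on the log2 scale, with the same pair of libraries lowest in both.

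Cajal-Retzius cells, early-born neurons of the cortical surface, gave a mixed picture: 4 of 10 genes were lower, 2 higher and 4 not called, and without E15.5 replicates 3 and 4 the counts were 6 and 1. Leaving out E12.5 replicate 1, E15.5 replicate 2 or E15.5 replicate 3 also left 1 higher. Reln, the secreted guidance protein of these cells that later neurons also make, measured 74.2, 76.0 and 78.7 CPM at E12.5 and 370, 645, 323, 315 and 409 CPM at E15.5 (2.43, SE 0.24). Ebf2, Barhl2 and Lhx5, transcription factors of the lineage, fell (log2 fold changes -2.11, -1.70 and -1.13). In each of these 3 genes E15.5 replicates 3 and 4 were the highest of their age, as for Ebf2 at 7.63 and 6.87 CPM against 3.03 to 4.01 CPM.

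General neuronal genes rose together, with 19 of 21 higher, 0 lower, 11 called over 2-fold by glmTreat and a median of 1.47. Neurod6, a bHLH factor of pyramidal neurons, measured 65.9, 72.8 and 77.3 CPM at E12.5 and 822, 768, 524, 521 and 883 CPM at E15.5, a 9.77-fold rise. Cntn1, an adhesion molecule of axons, and Rbfox1, a neuronal splicing factor, rose by 2.75 and 2.70. Of 20 tubulins and microtubule proteins, 17 were higher and 1 lower, with a median of 0.95. Mapt, the tau protein of axons, measured 158, 208 and 362 CPM against 1240, 1113, 1438, 1423 and 1187 CPM (2.40, SE 0.33), and Dcx, which binds microtubules in migrating neurons, 594, 653 and 892 CPM against 2036, 1794, 1977, 1929 and 2157 CPM (1.47, SE 0.13). E12.5 replicate 4 was the highest of its age for both. Map1b, Map2, Dclk1 and Tubb2b rose by 1.22, 0.90, 1.22 and 0.97.

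Of 24 neuronal RNA-binding proteins, 14 were higher and 4 lower, with a median of 0.62. Celf2 and the microexon regulator Srrm4 rose by 1.24 and 1.05. The 4 that fell were Ptbp1, Msi1, Msi2 and Qk, by 0.48 to 0.98, named after their values were seen. Ptbp1 and the Musashi proteins are known from progenitors. Of 27 axon guidance genes, 18 were higher and 4 lower, with a median of 0.59. The receptors Robo2, Nrp1, Plxna4 and Epha5 rose by 1.58, 1.54, 2.16 and 1.66. Robo2 measured 79.4, 100.6 and 110 CPM at E12.5 and 305, 280, 293, 274 and 298 CPM at E15.5.

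Genes of synaptic transmission had the highest medians of all lists. Of 30 genes for synaptic release and scaffolds, 29 were higher, 18 called over 2-fold by glmTreat, and the median was 1.61. Syn2, a vesicle phosphoprotein, measured 8.60, 10.5 and 15.3 CPM at E12.5 and 73.8, 80.3, 76.2, 80.7 and 78.5 CPM at E15.5 (2.75, SE 0.19). The postsynaptic adhesion molecule Nlgn1 and the vesicle protein Sv2b rose by 1.59 and 1.74. The 1 member not called was the vesicular transporter Slc17a6, at 0.13 (named, like the next exception, after its value was seen); without E12.5 replicate 4 it was called, at 0.37 (adjusted p 0.039 by edgeR).

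Of 35 glutamate and GABA receptor genes, 34 were higher, 24 called over 2-fold by glmTreat, with a median of 1.76. Grm5, a metabotropic glutamate receptor, measured 1.605, 3.02 and 4.46 CPM at E12.5 and 79.9, 73.3, 83.0, 79.6 and 85.4 CPM at E15.5, a 26.0-fold rise. The AMPA receptor subunit Gria3 and the GABA-A subunits Gabra4, Gabrg1 and Gabra2 rose by 2.51, 2.23, 2.41 and 1.58. The 1 member not called was the NMDA receptor subunit Grin2a, at -0.00. Of 35 ion channels and chloride transporters, 32 were higher, 17 called over 2-fold by glmTreat, and 0 were lower (1 without E15.5 replicates 3 and 4), with a median of 1.52. The calcium channels Cacna1e and Cacna1d rose by 2.96 and 2.42 and the potassium channels Kcnq3 and Kcnk2 by 2.81 and 1.18. Cacna1e measured 9.88, 12.52 and 18.1 CPM against 105, 108, 113, 96.3 and 103 CPM.

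**Figure D4:**
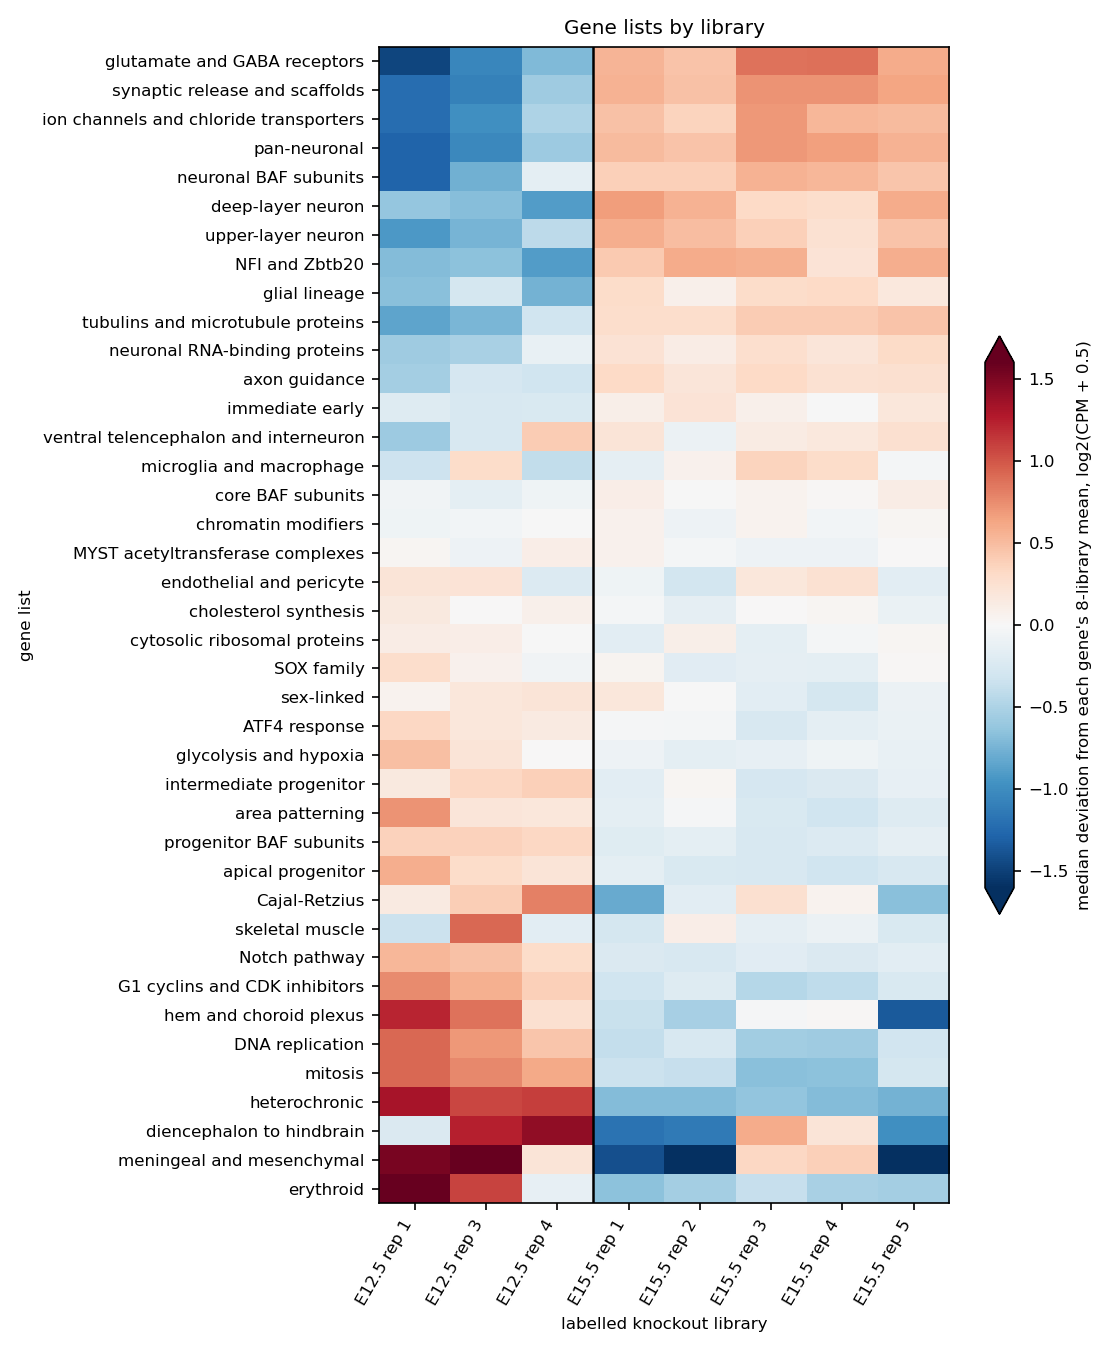
Median deviation of each list's genes from their mean over the 8 labelled knockout libraries, on a scale of log2(CPM + 0.5), by library (columns; the line separates E12.5 from E15.5), with lists ordered by their median age effect. E12.5 replicate 4 is the paler E12.5 column in most neuronal and cell cycle lists, and E15.5 replicates 3 and 4 differ from the other E15.5 libraries in the meningeal and the diencephalon to hindbrain rows.

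The E12.5 libraries were not equally far from E15.5. Among the 26 lists with a median of at least 0.5 either way, the list medians of the 2 ages did not overlap in 22. These lists were picked by the age difference in the same libraries, so the choice favours that count, which is a description only. In 19 of the 26 lists E12.5 replicate 4 was the E12.5 library nearest to the E15.5 median, and in 18 replicate 1 was the farthest. Replicate 4 was instead the farthest in 5 lists: NFI and Zbtb20, deep-layer neuron, glial lineage, Cajal-Retzius, and diencephalon to hindbrain. Replicates 3 and 4 share a litter, so these differences were found within litter 592 as well as between litters. The first principal component spanned 36.42 units over the 3 E12.5 libraries and 10.46 over the 5 E15.5 libraries. Neuronal BAF subunits show the spread by library: their summed level was 167, 192 and 298 CPM at E12.5 and 450 to 467 CPM at E15.5.

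Glial lineage genes were higher in 11 of 19 cases and lower in 2, with a median of 0.97. Aldh1l1, a folate enzyme used as an astrocyte marker, measured 0.864, 1.73 and 3.53 CPM at E12.5 and 36.8, 33.9, 38.7, 34.7 and 36.3 CPM at E15.5, a 17.3-fold rise. Olig1 of the oligodendrocyte lineage measured 5.51, 5.94 and 8.57 CPM against 22.3, 18.3, 30.9, 30.7 and 17.6 CPM (1.84, SE 0.26), highest in replicates 3 and 4. The secreted chaperone Clu rose by 1.71, and Sox9, a factor of radial glia and astrocytes, fell by 1.01.

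Of 15 cholesterol synthesis genes, 7 were lower and 1 higher (2 without E15.5 replicate 2), with a median of -0.11; the isomerase gene Idi1 fell by 0.75, and Fdft1, which encodes squalene synthase, rose by 0.46. Of 23 glycolysis and hypoxia genes, 12 were lower and 7 higher, with a median of -0.39 (-0.24 without E12.5 replicate 1). The hexokinases diverged, with Hk1 at 58.7, 60.4 and 63.9 CPM against 168, 145, 190, 175 and 163 CPM (1.46, SE 0.09) and Hk2 at 52.3, 35.8 and 25.5 CPM against 16.04, 14.4, 14.8, 13.4 and 15.02 CPM (-1.36, SE 0.19). The neuronal enolase Eno2 and glucose transporter Slc2a3 rose by 1.90 and 0.98. Of 15 ATF4 response genes, 9 were lower and 4 higher (2 higher without E12.5 replicate 3); Trib3, a pseudokinase induced by amino acid stress, fell by 3.46 from 3.05, 2.92 and 1.84 CPM, and Sesn2, Psat1 and Phgdh fell (log2 fold changes -1.15, -0.63 and -0.62). Of 11 immediate early genes, 3 were higher (5 without E12.5 replicate 4) and 2 lower. Of 77 cytosolic ribosomal protein genes, 68 were not called, 8 were lower (5 without E12.5 replicate 3) and 1 was higher, with a median of -0.11.

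Markers of other cell types also moved with age. Of 18 meningeal and mesenchymal genes, 12 were lower and 1 higher, with a median of -2.35. Their summed level was 1241, 2788 and 472 CPM at E12.5 and 106, 66.6, 352, 339 and 74.6 CPM at E15.5, and none of the 18 was at 0 in all libraries of an age. Without E15.5 replicates 3 and 4, 15 of 18 were lower and the median was -4.19; without E12.5 replicate 3, 7 were lower. Foxd1 and Twist1, mesenchymal transcription factors, and Foxc1 of the meninges fell (log2 fold changes -3.43, -4.60 and -2.34; Twist1 -2.98 without E12.5 replicate 3), and Ptgds, a prostaglandin synthase of the meninges, rose by 3.35. Diencephalon to hindbrain genes, a list that also names Six3 and Vax1, summed to 97.1, 252 and 462 CPM at E12.5. At E15.5 they summed to 62.6, 53.8, 339, 326 and 77.9 CPM. Of the 17 tested, 6 were lower, 12 were lower without E15.5 replicates 3 and 4, and 3 without E12.5 replicate 3. Of 20 hem and choroid plexus genes, 11 were lower and 0 higher, with a median of -1.14 (-0.71 without E12.5 replicate 1). Without E15.5 replicates 3 and 4, 12 were lower and the median was -1.48. Their sums overlapped between the ages, at 677, 556 and 403 CPM at E12.5 and 656, 165, 648, 654 and 126 CPM at E15.5. The Wnt pathway genes Wnt8b, Rspo1 and Rspo2 fell (log2 fold changes -2.73, -2.66 and -1.83) and Otx2 fell by 2.31. The part of these tissues in the changes of the cortical lists was not tested.

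Red blood cell genes carried some of the largest falls. Of 13 tested members, 11 were lower, 8 called over 2-fold by glmTreat, and 1 was higher. The embryonic globin Hbb-y measured 2585, 1836 and 998 CPM at E12.5 and 12.3, 13.8, 18.4, 17.9 and 9.82 CPM at E15.5, a 126-fold lower level. Hba-x and Hbb-bh1, also embryonic globins, fell (log2 fold changes -7.03 and -8.72), and the red cell membrane genes Slc4a1 and Epb42 fell by 5.35 each. Summed levels were 1404 to 3872 CPM at E12.5 and 255 to 310 CPM at E15.5. The member called higher was Hbb-bs, an adult globin, at 13.4, 26.2 and 14.4 CPM against 80.3, 74.4, 62.1, 71.9 and 51.7 CPM (1.92, SE 0.22), named after its value was seen. Near-identical adult globin genes can share reads, so that value is uncertain.

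Vascular and ventral lists held genes called in each direction, as did all genes tested (29.4% higher and 27% lower), so this is not particular to them. Of 16 endothelial and pericyte genes, 6 were higher and 4 lower (1 lower without E12.5 replicate 1 or 3, and 2 without E15.5 replicate 1 or 2). Without E15.5 replicates 3 and 4, 6 were lower and the median of -0.08 became -0.28, and 6 were also lower without E12.5 replicate 4. Their sum of 293 to 427 CPM at E12.5 overlapped that of 311 to 437 CPM at E15.5. The log2 fold changes of the 16 genes ran from -1.23 to 2.63, and 9 were below 0. The 4 genes named next had the smallest p of the list and all rose, and the 4 called lower are not named. Slco1c1, a transporter of the blood-brain barrier, measured 2.22, 2.48 and 3.85 CPM against 22.5, 14.6, 16.3, 18.3 and 16.7 CPM (2.63, SE 0.20), and the tight junction gene Cldn5, the pericyte gene Rgs5 and the barrier lipid transporter Mfsd2a rose by 1.19, 1.27 and 0.54. Of 14 microglia and macrophage genes, 3 were higher and 3 lower (6 and 1 without E12.5 replicate 3): P2ry12, a purine receptor of microglia, rose by 1.30 and Pf4, a chemokine of border macrophages, fell by 2.93 (log2 fold change -5.07 without E15.5 replicates 3 and 4). Of 21 genes of the ventral telencephalon and interneurons, 7 were higher and 3 lower. Erbb4, a receptor of migrating interneurons, rose by 1.68, while the progenitor factor Gsx2 fell by 1.26. Of 8 skeletal muscle genes tested, 3 were lower and 0 higher, with a median of -0.68; without E12.5 replicate 3, 1 was higher and the median was 0.15. Their sum was 6.08 to 21.6 CPM at E12.5 and 5.01 to 7.13 CPM at E15.5. None of 5 sex-linked genes was called. The labelled knockout libraries all held Y-linked RNA (summed 172 to 262 CPM) and at most 0.569 CPM of Xist. Wild-type E12.5 replicate 4 held 0.796 CPM of Y-linked RNA and 1083 CPM of Xist, unlike the other wild-type C57BL/6 libraries. With a sex covariate, the age by genotype difference was called for 0 genes by edgeR.

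The largest rises among genes with at least 10 CPM at the higher age are given next. Thy1, a surface glycoprotein of neurons, measured 0.0820, 0.204 and 0.0970 CPM at E12.5, resting on 2, 6 and 3 reads, and 11.3, 12.51, 9.69, 8.40 and 10.998 CPM at E15.5 (log2 fold change 6.30, SE 0.33). Sla, an adaptor protein, measured 1.52, 1.53 and 1.49 CPM against 115, 115, 68.1, 69.7 and 126 CPM (6.03, SE 0.31), so E15.5 replicates 3 and 4 were lower than the rest. The guanine deaminase Gda, the nitric oxide synthase Nos1 and the proline transporter Slc6a7 rose by 6.08, 4.87 and 4.84. Slc6a7 rested on 0, 9 and 23 reads at E12.5 and on 185, 116, 217, 426 and 230 reads at E15.5. Relative to library size, E15.5 replicates 3 and 4 held the most Slc6a7, so the size of its rise leans on this pair. The dopamine receptor Drd1, the melanocortin receptor Mc4r, the dynein subunit Dync1i1, and the stress-regulated Ndrg1 rose by 4.51, 4.28, 4.50 and 4.62, as did the uncharacterised 2810459M11Rik.

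The call of Rmrp and the size of the Lars2 rise rested on E15.5 replicate 3, the library rich in ribosomal RNA. Rmrp, a non-coding RNA of a ribonuclease, measured at most 0.356 CPM at E12.5 and 0.114, 0.535, 91.4, 0.382 and 0.189 CPM at E15.5, and its log2 fold change of 5.97 became -0.04 without that library, and its adjusted p by edgeR of 0.041 became 0.10 to 0.12 without any 1 of the E12.5 libraries. Lars2, the mitochondrial leucyl-tRNA synthetase gene, measured 1043, 618 and 690 CPM against 1016, 1453, 20223, 1242 and 1387 CPM. Its log2 fold change of 2.69 became 0.69 without E15.5 replicate 3, where it was still called at an adjusted p of 0.033 by edgeR. With all libraries its adjusted p of 0.036 by edgeR became 0.073 to 0.11 without any 1 of the E12.5 libraries.

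The largest falls outside the blood and timing genes follow. Six2, a factor of mesenchymal progenitors, measured 25.4, 45.2 and 3.66 CPM at E12.5 and 0.228 to 0.428 CPM at E15.5, and Lum, a matrix proteoglycan, 78.0, 143 and 29.8 CPM against 0.872, 0.0670, 7.13, 5.89 and 0.497 CPM. Both were highest in E12.5 replicate 3, the library with the highest meningeal sum. The link protein Hapln1 and Fndc3c1 fell (log2 fold changes -5.31 and -4.65), and Hsd3b6, a steroid dehydrogenase, fell by 6.38. Dnm3os measured 7.12, 25.2 and 2.59 CPM at E12.5 and was at 0 in 3 of the 5 E15.5 libraries; it lies antisense to Dnm3, and a count without strand cannot part them. By absolute level the largest losses were of the mitochondrial genes COX1 and ND1 (log2 fold changes -0.49 and -0.64), Hnrnpa2b1 (-0.55), Miat (-1.46) and Nedd4 (-0.54), and the largest gains, after Lars2, of Map1b, Dcx, Tubb2b, Mapt and Nrep (1.03). COX1 and ND1 were no longer called without E12.5 replicate 4, at adjusted p values of 0.10 and 0.071, nor without E15.5 replicates 3 and 4.

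Genes that rose were longer than those that fell. The median genomic span, from gene start to end on mm10, was 35.0 kb in the 4686 genes called higher with a span, 20.8 kb in 4298 called lower and 22.6 kb in all 15807. Among genes called over 2-fold, the medians were 53.9 kb for higher and 17.6 kb for lower genes. Among the 691 genes of 250 kb or more, the median log2 fold change was 0.85, 67.9% were called higher and 11.4% lower, against 20.1% and 23.4% of the 2379 genes under 5 kb. Spans are those of the genes in the annotation, and this is a description across genes, which are not independent replicates.

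**Figure D5:**
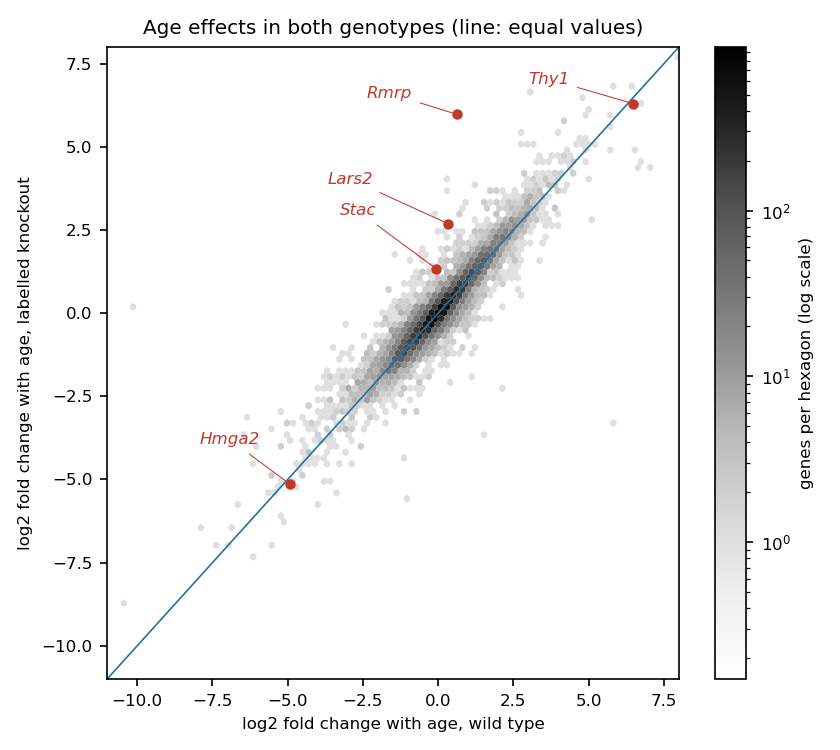
Log2 fold change from E12.5 to E15.5 in wild type (horizontal axis) and labelled knockout (vertical axis) for 16118 genes, shown as the number of genes per hexagon, with the line of equal values. Most genes lie along the line; Stac (-0.08 and 1.34), Rmrp (0.63 and 5.97) and Lars2 (0.32 and 2.69) are marked above it, and Hmga2 and Thy1 along it.

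The age effect in the labelled knockout was compared with that of wild-type C57BL/6 embryos, which share no library with it. In wild type 4613 genes were higher (28.6%) and 4544 lower (28.2%) at E15.5. A set of 7878 genes was called in both genotypes and every one of them in the same direction, which is 86.7% of the labelled knockout calls and 86% of the wild-type calls. Of genes called over 2-fold, 1197 were shared, 77.9% of those of the labelled knockout and 85.1% of those of wild type. The difference between the age effects, tested as an interaction, was called for 0 genes (0%) by edgeR, with 438 genes (2.72%) at an unadjusted p below 0.05. DESeq2 and limma-voom with quality weights each called 1 gene and had 429 and 1542 genes at an unadjusted p below 0.05. The median absolute difference between the genotypes was 0.12 on the log2 scale, against a median absolute age effect of 0.42, and the median 95% interval of a difference reached 0.40 to either side. That interval is per gene and not adjusted over all genes, so differences larger than 0.40 could also go uncalled. A count of 0 called genes therefore does not show that such differences are absent.

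The gene with the smallest p for that difference was Stac, which encodes a small adaptor protein of calcium channels. It measured 2.35, 1.83 and 1.75 CPM in the labelled knockout at E12.5 and 4.32, 5.42, 4.56, 5.13 and 5.49 CPM at E15.5, while wild type held 5.10, 5.08 and 5.09 CPM and 4.17, 4.01, 5.49, 5.12 and 5.32 CPM. The labelled knockout was low only at E12.5. Its age effect was 1.34, that of wild type was -0.08, and the difference was 1.41 (95% interval 0.95 to 1.88). The adjusted p was 0.11 by edgeR, 0.044 by limma-voom with quality weights and 7.1e-05 by DESeq2. Next by p were Tshz1, Prkcb, Cnr1 and Plcxd2, with differences of 0.43, 0.59, 0.67 and 0.44 and adjusted p values of 1.0 by edgeR. Cnr1, the cannabinoid receptor of neurons, measured 76.6, 72.0 and 85.8 CPM in the labelled knockout at E12.5 against 89.9, 131 and 126 CPM in wild type. At E15.5 the values were 205 to 256 CPM and 172 to 233 CPM. Prkcb, a protein kinase C, Plcxd2 and Tshz1, a zinc finger factor, likewise had lower E12.5 levels in the labelled knockout. Tshz1 measured 85.6, 65.7 and 71.1 CPM there against 95.9, 97.5 and 94.0 CPM in wild type, and had age effects of 0.03 and -0.40.

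List medians in the genotypes are given as a description, with no test of the medians. With the labelled knockout first and wild type after it, the DNA replication median was -1.14 and -1.12, mitosis -1.26 and -1.23, heterochronic -1.76 and -1.88, pan-neuronal 1.47 and 1.43, upper-layer 1.15 and 1.05, and glutamate and GABA receptors 1.76 and 1.54. NFI factors and Zbtb20 had medians of 1.04 and 0.74. Medians stood farther apart for hem and choroid plexus (-1.14 and -1.84), meningeal and mesenchymal (-2.35 and -2.70), skeletal muscle (-0.68 and -0.14) and ventral telencephalon genes (0.18 and 0.55), and chromatin modifiers had 0.08 and -0.10. In no list was a member's difference between genotypes called. In Tg(Kat6b) embryos, of another background and sequencing batch and fitted apart, the first 6 of these medians were -0.84, -0.87, -1.68, 1.13, 1.10 and 1.22, with 1.39 for NFI factors and Zbtb20. In wild-type FVBxBALB/c embryos of that batch they were -0.95, -1.02, -1.85, 1.16, 1.14 and 1.35, with 0.98 for NFI factors and Zbtb20. Of 8883 labelled knockout calls measured in the fit of the FVBxBALB/c libraries, 6103 were called in the same direction in Tg(Kat6b) embryos. The share of all genes called with age in Tg(Kat6b) embryos is not given, so that count is a description only. Across the 15448 genes measured in both fits, the age effects of labelled knockout and Tg(Kat6b) correlated at a Pearson r of 0.86.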

How the data were processed

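Each library was sequenced from total RNA of 1 embryo (RNeasy extraction, TruSeq RNA prep kit v2, NextSeq500, per the labels' protocols). The deposited values are read counts per gene that the authors made with bcl2fastq and featureCounts on mm10, per the submitters' processing notes; for aligner, annotation and strand setting: not given in the sources used here. Of 27179 rows, 848 had no gene name (0.308% to 2% of counts in labelled knockout libraries) and were left out. The 16 C57BL/6 libraries entered 1 edgeR 4.0.16 fit (R 4.3.3) with a term per age and genotype. Genes were filtered by filterByExpr (minimum count 10, minimum total 15), which kept 16118, and scaled by TMM. Quasi-likelihood tests had 12 residual degrees of freedom, p-values were adjusted by Benjamini-Hochberg over all genes at 0.05, and glmTreat tested against 2-fold. SE was worked back from the F statistic. CPM used the scaled library sizes. FVBxBALB/c libraries were fitted apart (15556 genes). Alternatives included limma 3.58.1 and DESeq2 1.42.0, and the code was tested on simulated data.

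The members and lists were chosen with earlier results of these data known. Genes were named by rule: Kat6b; the 12 higher and 12 lower called genes with the largest log2 change and at least 10 CPM at the higher age; the 6 with the largest CPM difference each way; up to 4 members of each list by p; all members of the timing and BAF exchange lists; and the 5 smallest p of the age by genotype test. Others were named after their values were seen. Some of the rule's genes (mostly ribosomal protein, immediate early, muscle and sex-linked genes) are counted only within their lists. A few other genes are not reported here. Same-numbered labelled knockout and wild-type libraries share a litter, per the labels; their deviations from the group means correlated at 0.39, -0.36 and 0.33 at E12.5 and at 0.15, -0.11, 0.32, -0.04 and 0.39 at E15.5. The numbers do not pair the ages (r of 0.16, 0.20 and -0.03). Replicates differed beyond sampling noise. Labels name separate embryos, some from 1 litter, so p-values measure the spread between embryos of these litters.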

Additional observations from a re-analysis of the deposited data

Results flagged for a closer look

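Among 189 sets of 5 E15.5 labelled knockout values checked for a library far from the rest, 11 held one (5.8%); chance gives about 1 in 20. Groups of 3, as at E12.5, were not checked. Replicate 3 held 4 of them: ribosomal RNA at 19.12% of counts (others 0.0994% to 0.5294%), Lars2 at 20223 CPM (others 1016 to 1453), Rmrp at 91.4 CPM (others 0.114 to 0.535) and Sall4 at 0.214 CPM (others 0.535 to 0.607). Replicate 1 was apart for Brpf1 at 72.1 CPM (others 59.9 to 63.1), Hmga2 at 6.22 CPM (others 8.04 to 8.74) and Miat at 606 CPM (others 370 to 404). Replicate 2 was apart for Reln at 645 CPM (others 315 to 409), Cacna1d at 32.3 CPM (others 34.4 to 34.6) and Epb42 at 0.334 CPM (others 0.0710 to 0.143). Replicate 4 was apart for Nfic at 43.0 CPM (others 47.8 to 49.0).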

How the results depend on the processing

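Across the alternatives run, the counts of genes higher and lower with age stayed within 1.5 times of the values above, and between 7706 and 8994 of the 9090 called genes were called the same way; 1 gene was called the opposite way, without E12.5 replicate 3. Leaving out each library in turn gave 4190 to 4691 genes higher, 3675 to 4279 lower, 777 to 1231 over 2-fold higher and 336 to 705 over 2-fold lower. Against 1.5-fold, glmTreat called 2041 genes higher and 1423 lower. Over 2-fold lower, limma-voom called 273 genes and DESeq2 315; the cause was not tested. The age by genotype difference was called for 1 gene, Stac, by limma-voom with quality weights and by DESeq2. With the replicate number as a block, 4564 genes were higher, 4018 lower, 1025 over 2-fold higher and 448 over 2-fold lower, and 0 differed between genotypes; with a block by litter 0 did. Among the genes named, the block by replicate number ended the calls of Rmrp, Lars2 and Hopx (adjusted p by edgeR 0.17, 0.13 and 0.10). Equal numbers at the 2 ages are different litters, so that block does not pair the ages and its result is a description only.

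Signs changed for Rmrp and for genes not called. With upper-quartile factors the log2 fold change of Mycn was -0.019 and that of Tshz1 -0.023, which with all 32 libraries was -0.0030. Without E15.5 replicates 3 and 4, Rmrp was -0.22, Emx1 0.049 and Slc17a6 -0.030. Leaving out each library in turn gave -0.34 to 0.31 for Emx1, -0.19 to 0.16 for Grin2a, -0.076 to 0.27 for Mycn, -0.039 to 6.30 for Rmrp, -0.0060 to 0.37 for Slc17a6 and -0.045 to 0.15 for Tshz1. Genes at a few reads, such as Lin28a at E15.5, have imprecise fold changes.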
